A study of Sus scrofa with 30 samples.

Results

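The genes described here are PSMD4, PIP5K1A, PFDN6 and SLC37A4, measured in pig cerebral cortex after cardiac arrest with and without methylene blue. They are 4 of 6765 genes with a single symbol on the array. They were represented by all 7 probe sets that carry 1 of these symbols alone, of 23999 probe sets on the array that are not controls: 1 for PSMD4, 3 for PIP5K1A, 1 for PFDN6 and 2 for SLC37A4. The 4 genes were chosen because earlier results of these data placed them among the highest under methylene blue. Every difference that rests on the methylene blue arrays against other groups is therefore a description and carries no test. Tests are given for untreated arrest and for times within an arm. Those within the methylene blue arm use arrays on which the genes were chosen. A probe set is a group of short probes on an Affymetrix array that report 1 transcript sequence, and several probe sets can represent 1 gene.

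The study used prepubertal farm pigs, a Swedish triple breed, of both sexes, 12 to 14 weeks old, under pentobarbital anaesthesia, with cardiac arrest brought about by electrically induced ventricular fibrillation. Untreated arrest lasted 0 min (CA0, the control), 5 min (CA5), 20 min (CA20) or 30 min (CA30), and these pigs had neither resuscitation nor infusion. Every pig was given potassium chloride before its brain was removed. All other pigs had 12 min of arrest and 8 min of chest compressions, and cortex was taken 30, 60 or 180 min after spontaneous circulation returned. They were randomly assigned to saline at 55 mL/kg/h (SAL30, SAL60, SAL180) or to the same saline with methylene blue at 7.5 mg/kg/h (MB30, MB60, MB180), infused from 1 min after the start of compressions until 50 min after circulation returned, so that both arms carried the saline load and tissue at 60 and 180 min was taken after the infusion had stopped. Each of the 10 groups had 3 arrays labelled as biological replicates, 30 in all.

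PSMD4 is a ubiquitin receptor in the regulatory particle of the proteasome, the complex that degrades proteins tagged with ubiquitin chains. PIP5K1A is a kinase that makes the plasma membrane lipid PIP2, from which phospholipase C releases second messengers and which directs endocytosis at synapses. PFDN6 is a subunit of prefoldin, which passes newly made actin and tubulin to the cytosolic chaperonin CCT, and SLC37A4 carries glucose 6-phosphate from the cytosol into the endoplasmic reticulum. Methylene blue accepts and donates electrons and blocks soluble guanylate cyclase, the enzyme through which nitric oxide acts.

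Some properties of the arrays bear on all values below. Intensity is in arbitrary units. The median intensity of the 9 MB arrays, 97.6 to 108, ran higher than that of the CA and SAL arrays, 87.1 to 105, with some overlap. Its mean was 103.6 ± 3.2 (SD) on the MB arrays and 94.2 ± 4.6 on the 21 CA and SAL arrays. The log2 ratio of 3' to 5' probe sets of pig control transcripts, a sign of RNA length and labelling, was 0.71 to 1.34 on the 9 MB arrays, 0.98 to 2.59 on the 9 SAL arrays and 1.06 to 2.70 on the 12 CA arrays. CA20 replicates 2 and 3, SAL60 replicate 2 and SAL180 replicate 3 stood apart with the 4 highest ratios. Cortex markers were present: 7 of 7 neuronal, 8 of 8 astrocyte and 6 of 6 oligodendrocyte markers on the array lay above the filter on low values, an intensity of about 29.5. Of the 7 white blood cell markers 6 lay below it, as did TTR, a choroid plexus marker, although the mean log2 level of the 3 choroid plexus markers reached 10.57 on 1 CA array against at most 7.31 on any MB array. Markers above the filter were compared between methylene blue and saline in the mean of the 3 times. Higher under methylene blue were 2 of 7 neuronal, 2 of 8 astrocyte, 1 of 8 endothelial, 1 of 5 smooth muscle and 2 of 5 meningeal markers. Lower were 1 astrocyte, 1 oligodendrocyte and 1 microglial marker. Over all tested probe sets 13.8% were called higher and 11.4% lower in the same mean. The part of these markers in the levels below was not tested. In bulk tissue, more cells of a type and more RNA per cell cannot be told apart.

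The PSMD4 probe set read 355, 346 and 362 in CA0 (replicates 1, 2 and 3), 286, 257 and 378 in CA5, 430.0, 209.6 and 289 in CA20, and 281, 382 and 439.9 in CA30. Under saline it read 441, 302 and 412 in SAL30, 305, 235 and 399.9 in SAL60, and 309.7, 355 and 331 in SAL180. Under methylene blue it read 1314, 1091 and 1187 in MB30, 1223, 1363 and 1114 in MB60, and 1217, 1056 and 1085 in MB180. All 9 MB arrays lay above all 21 others, the lowest MB array at 1056 and the highest other array at 441. The mean intensity over the 3 times was 3.45 times higher under methylene blue than under saline, and saline and CA0 levels overlapped at each time.

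Of the 3 PIP5K1A probe sets the brightest had a wide gap between MB and other arrays. It read 98.4, 121 and 68.2 in CA0, 91.2, 64 and 88.6 in CA5, 113, 86.8 and 83.7 in CA20, and 69.3, 101 and 97.9 in CA30. Saline values were 66.0, 80.6 and 79.8 in SAL30, 86.2, 51.4 and 127 in SAL60, and 122, 141 and 85.1 in SAL180. Under methylene blue they were 368, 338 and 405 in MB30, 395, 376 and 348 in MB60, and 524, 302 and 329 in MB180. The groups did not overlap, with 302 as the lowest MB value and 141 as the highest other value, and the MB mean was 4.03 times the saline mean. The other PIP5K1A probe sets did not share this pattern. The middle one in brightness ran from 24.2 to 52.3 (median 39.1) on the MB arrays and from 16.4 to 44.4 (median 26.6) on the 21 others, which overlap, and its ratio of methylene blue to saline was 1.33. The dimmest lay below the filter and was not tested. Its MB arrays spanned 7.90 to 85.0 and the others 2.99 to 48.0, with 19.2 ± 17.8 (SD, n = 3) in MB60 beside 19.1 ± 13.7 in SAL60. The files do not say which part or form of the PIP5K1A transcript each probe set reads.

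PFDN6 varied least between arrays of a group. It read 207, 197 and 209 in CA0, 225, 202 and 196 in CA5, 264, 191 and 198 in CA20, and 233, 210.0 and 179.9 in CA30. Under saline it read 213, 209 and 188 in SAL30, 213, 216 and 168 in SAL60, and 211, 234 and 239.8 in SAL180. Under methylene blue the values were 586, 563 and 638 in MB30, 582, 578 and 517 in MB60, and 614, 537 and 528 in MB180. The lowest MB array, at 517, was above the highest other array, CA20 replicate 1 at 264, and the ratio of methylene blue to saline means was 2.72. In SAL180 all 3 arrays were also above the 3 CA0 arrays, by 0.15 ± 0.13 (SE, interval -0.12 to 0.41) on the log2 scale. How many of all probe sets separate SAL180 from CA0 in this way was not counted, so nothing is read from this order.

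SLC37A4 was read by 2 probe sets that both ran higher under methylene blue. The brighter one gave 109.8, 50.9 and 60.0 in CA0, 80.2, 50.8 and 49.7 in CA5, 80.8, 41.0 and 46.2 in CA20, and 80.6, 47.5 and 59.7 in CA30. In each of these 4 groups replicate 1 was the highest array. Under saline it gave 57.4, 33.8 and 56.9 in SAL30, 62.3, 54.1 and 68.3 in SAL60, and 60.5, 43.2 and 49.8 in SAL180, and under methylene blue 216, 224 and 182, then 179, 150.2 and 226, then 193, 200.1 and 165. All 9 MB arrays were above the highest other array, CA0 replicate 1, and the ratio to saline was 3.57. The dimmer one gave 76.4, 93.9 and 100.2 in MB30, 79.8, 115 and 76.3 in MB60, and 61.2, 101 and 119.7 in MB180, against 26.8 to 65.1 on the 21 other arrays. MB180 replicate 1 fell inside the range of the others, below SAL30 replicate 1 at 65.1, and the ratio to saline was 2.17.

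**Figure D1:**
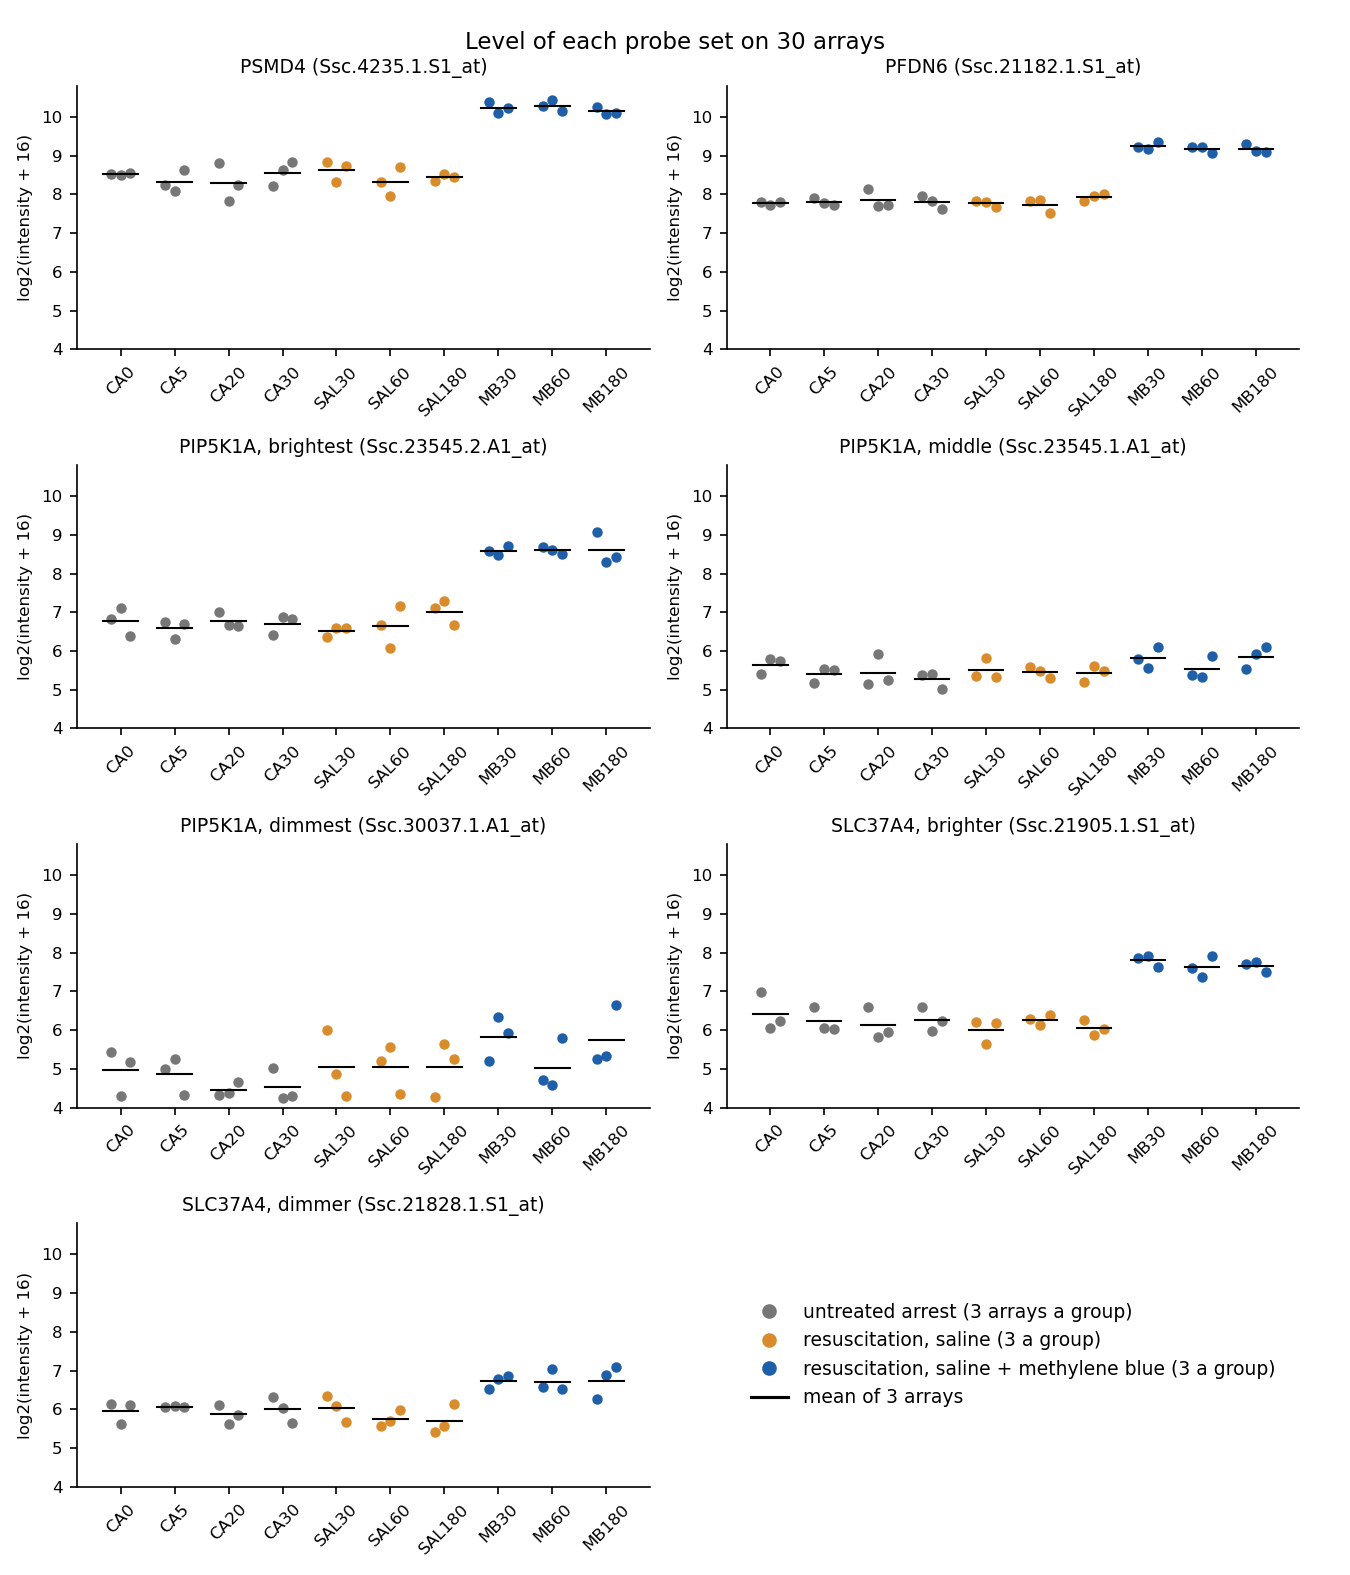
Level of each of the 7 probe sets on the 30 arrays, as log2(intensity + 16), by group on the horizontal axis; points are arrays and lines are means of 3. PSMD4, PFDN6, the brightest PIP5K1A and the brighter SLC37A4 probe set have all 9 MB arrays above the 21 others, and the 2 other PIP5K1A probe sets overlap.

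Thus 4 of the 7 probe sets, 1 for each gene, had all 9 MB arrays above all 21 others. Among all 23999 probe sets 135 did so (0.563%), and 65 had all 9 below. As the genes were chosen on these arrays, nothing is read from that share.

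For 5 of the 7 probe sets the 3 MB groups stood on top of the 10 groups, in an order that differed between these probe sets. How many of all probe sets have the MB groups on top was not counted. As the genes were chosen on these arrays, nothing is read from this count. The step from the lowest MB group to the next group was 1.52 for PSMD4, 1.57 for the brightest PIP5K1A probe set, 1.23 for PFDN6, and 1.21 and 0.65 for the brighter and dimmer SLC37A4 probe sets, in differences of log2(intensity + 16). The residual SD between arrays of a group was 0.26, 0.30, 0.13, 0.29 and 0.29 in the same order. Steps between neighbours among the 3 MB groups were at most 0.14, and steps among the 7 other groups at most 0.24, in each case below the SD of the same probe set. For the middle PIP5K1A probe set CA0 stood between MB30 and MB60, and for the dimmest, whose SD was 0.62, MB60 stood below the 3 saline groups.

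The difference between methylene blue and saline was taken at equal times, 30, 60 and 180 min, and no test between times was made. For PSMD4 it was 1.61, 1.95 and 1.71 (SE 0.20 each, n = 3 per group) on the log2 scale, and for PFDN6 1.48, 1.43 and 1.23 (SE 0.13). For the brightest PIP5K1A probe set it was 2.08, 1.96 and 1.59 (SE 0.24), and for the middle one 0.31, 0.07 and 0.42 (SE 0.23). For SLC37A4 it was 1.79, 1.36 and 1.59 on the brighter and 0.69, 0.97 and 1.03 on the dimmer probe set (SE 0.24 each). The background of calls in these contrasts is given beside them. With limma, the share of the 16799 probe sets called higher at an adjusted p under 0.05 was 2.4% for MB30 against SAL30, 0.726% for MB60 against SAL60 and 1.28% for MB180 against SAL180. The shares called lower were 1.69%, 0.798% and 0.619%. With each contrast fitted on the compared groups alone, 25, 40 and 14 probe sets were called higher and 2, 23 and 1 lower.

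In the mean of the 3 times, methylene blue minus saline was 1.88 ± 0.14 (SE, 9 arrays per arm) for the brightest PIP5K1A probe set, 1.76 ± 0.12 for PSMD4, 1.58 ± 0.14 and 0.90 ± 0.14 for SLC37A4, 1.38 ± 0.07 for PFDN6 and 0.26 ± 0.13 for the middle PIP5K1A probe set. In this mean 13.8% of all probe sets were called higher and 11.4% lower, with a median difference of 0.02, so a call as such was frequent. The share of calls that were higher was 54.7% as deposited, 44.5% after quantile normalization and 31.0% after centring each array on its median, which moved the median of all probe sets to -0.07. Among 7848 tested probe sets with a single symbol, PIP5K1A ranked 2, PSMD4 5, SLC37A4 8 and PFDN6 14 by size, and the second SLC37A4 and PIP5K1A probe sets ranked 111 and 1701. Of the other genes in the first 12, NDRG2 (rank 9) also had all MB arrays above the rest, whereas DZANK1, HGSNAT, SLC3A1, CLTC, PICALM, RASGRP1, OSBPL1A and ATP6V1A did not. Their differences of 1.50 to 1.98 had SEs of 0.22 to 0.42, against 0.07 to 0.14 for the leading probe set of each of the 4 genes. For NDRG2 the SE was 0.10. The 4 genes and their leading probe sets were picked on these arrays, so nothing is read from these ranks and SEs.

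**Figure D2:**
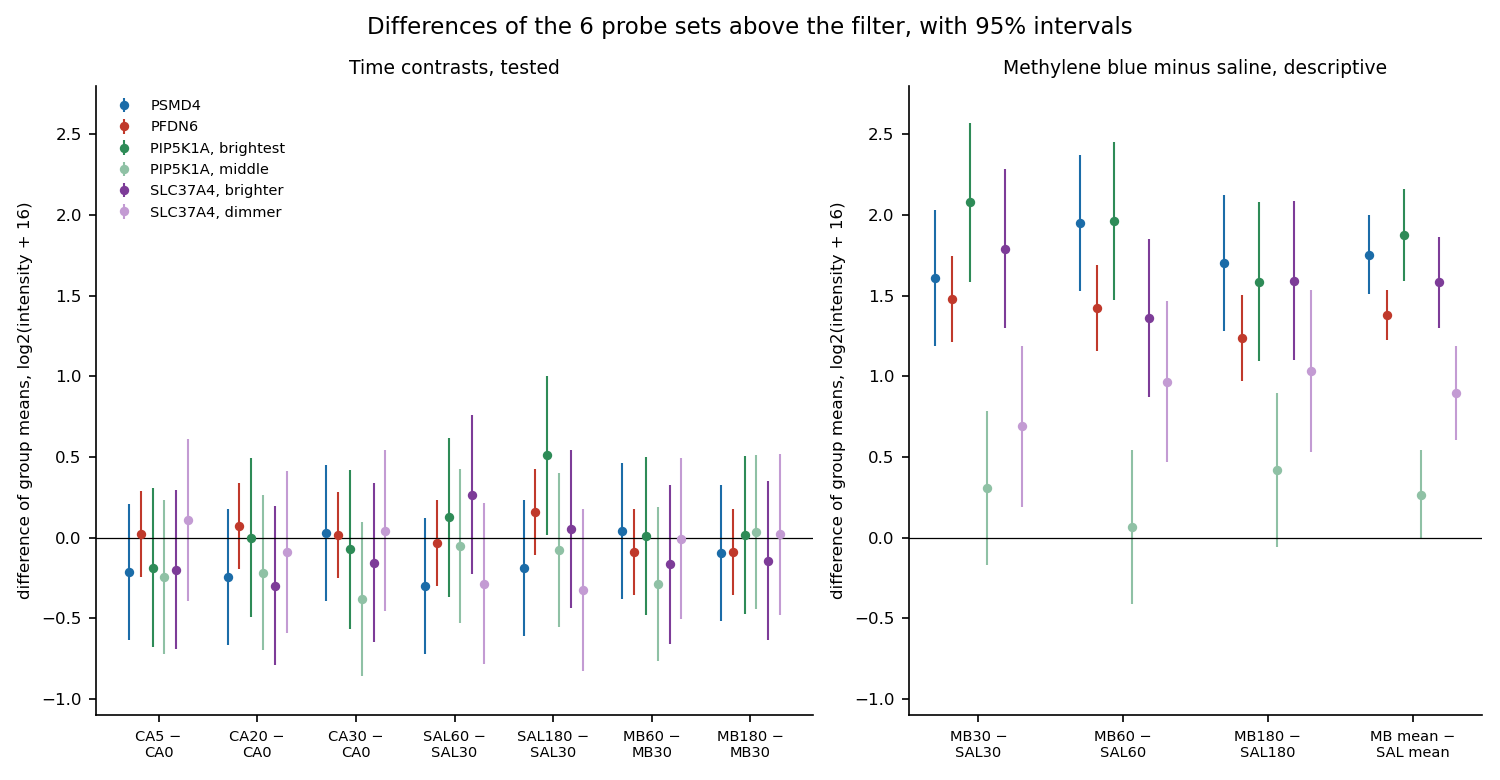
Differences of group means in log2(intensity + 16) with 95% intervals for the 6 probe sets above the filter, for the tested time contrasts (left) and for methylene blue minus saline (right, descriptive). No time contrast was called, and the right panel shows PSMD4, PFDN6, the brightest PIP5K1A and the brighter SLC37A4 probe set between 1.23 and 2.08 at each time.

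Untreated arrest, which the choice of genes did not use, addressed whether the levels moved with ischaemia alone. Of 18 tests (6 probe sets above the filter at 5, 20 and 30 min against CA0) limma called 0. The background was 0% of probe sets called at 5 min (317 at an unadjusted p under 0.05) and 0.0119% at both 20 and 30 min. PSMD4 differed from CA0 by -0.22 (95% interval -0.64 to 0.21), -0.24 (-0.66 to 0.18) and 0.03 (-0.39 to 0.45), and PFDN6 by 0.02 (-0.25 to 0.29), 0.07 (-0.20 to 0.34) and 0.01 (-0.25 to 0.28). The brightest PIP5K1A probe set differed by -0.19 (-0.68 to 0.31), 0.00 (-0.49 to 0.49) and -0.07 (-0.57 to 0.42). The brighter SLC37A4 probe set differed by -0.20 (-0.69 to 0.29), -0.30 (-0.79 to 0.19) and -0.15 (-0.65 to 0.34). The dimmer SLC37A4 probe set differed by 0.11 (-0.39 to 0.61), -0.09 (-0.59 to 0.41) and 0.04 (-0.46 to 0.55). The middle PIP5K1A probe set stood at -0.38 ± 0.23 (SE, 95% interval -0.86 to 0.10) in CA30 and did not pass (limma adjusted p = 0.985). It cleared the filter only through its MB arrays, with a mean intensity of 28.3 on the 21 CA and SAL arrays and 37.9 on the MB arrays. Its place among the tests is therefore not independent of the arrays on which the genes were chosen. CA20 rests on 2 of the arrays that stood apart. Without all 4 of those PSMD4 differed from CA0 by 0.27 in place of -0.24, with a single CA20 array left that is assumed to vary like the other groups, and no test was called.

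Within each arm, the levels were compared over time with the 30 min group of the same arm. The MB tests use arrays on which the genes were chosen, so a level that held over time in that arm may be partly built in. Limma called 0 of 24 such tests, which again include the middle PIP5K1A probe set that cleared the filter only through its MB arrays. For MB60 and MB180 against MB30 the background was 0% (709 probe sets at an unadjusted p under 0.05) and 0.286%, and for SAL60 and SAL180 against SAL30 it was 0% (537) and 0.655%. From 30 to 180 min under methylene blue PSMD4 differed by -0.09 (95% interval -0.52 to 0.33), the brightest PIP5K1A probe set by 0.02 (-0.48 to 0.51), PFDN6 by -0.09 (-0.36 to 0.18) and SLC37A4 by -0.14 (-0.64 to 0.35) and 0.02 (-0.48 to 0.52). MB30 was taken while the infusion ran and MB180 after it had ended. Under saline the brightest PIP5K1A probe set was 0.51 ± 0.24 (SE) higher at 180 than at 30 min, with an interval of 0.02 to 1.001. It had the smallest p of the 24 tests and did not pass (limma unadjusted p = 0.0431, adjusted p = 0.353). Saline groups differed from CA0 by -0.42 to 0.24 over the 6 probe sets, which is given as a description.

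Poly-A spike-ins are bacterial transcripts that are added to RNA before labelling, and the array carries probe sets for them. The sources used here do not give the amounts added. Over 36 probe sets for dap, lys, phe and thr, their mean log2 level was 6.06 to 6.51 on the MB arrays, 6.36 to 7.28 on the SAL arrays and 6.43 to 7.47 on the CA arrays. Methylene blue minus saline was -0.66 (exact permutation of arm within time, 2-sided p = 0.0005 over 8000 relabellings). For the 3' spike-in probe sets alone it was -0.87 (exact p = 0.00025, the smallest these relabellings can give), and the MB arrays, at 6.66 to 7.17, did not overlap the 21 others at 7.46 to 8.48. The spike-ins were thus lower on the arrays on which the 4 genes were higher. The hybridization controls, added after labelling, differed by -0.05 (exact p = 0.761). The trpn control probe sets differed by 0.14 (exact p = 0.00575), in the other direction from the poly-A spike-ins. Their mean log2 level was only 4.28 on the SAL arrays and 4.43 on the MB arrays. This is below the filter on low values and close to the lowest value the scale allows. The trpn difference therefore does not show that a detected control transcript rose. The 3'/5' ratio differed by -0.60 (exact p = 0.00175).

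**Figure D3:**
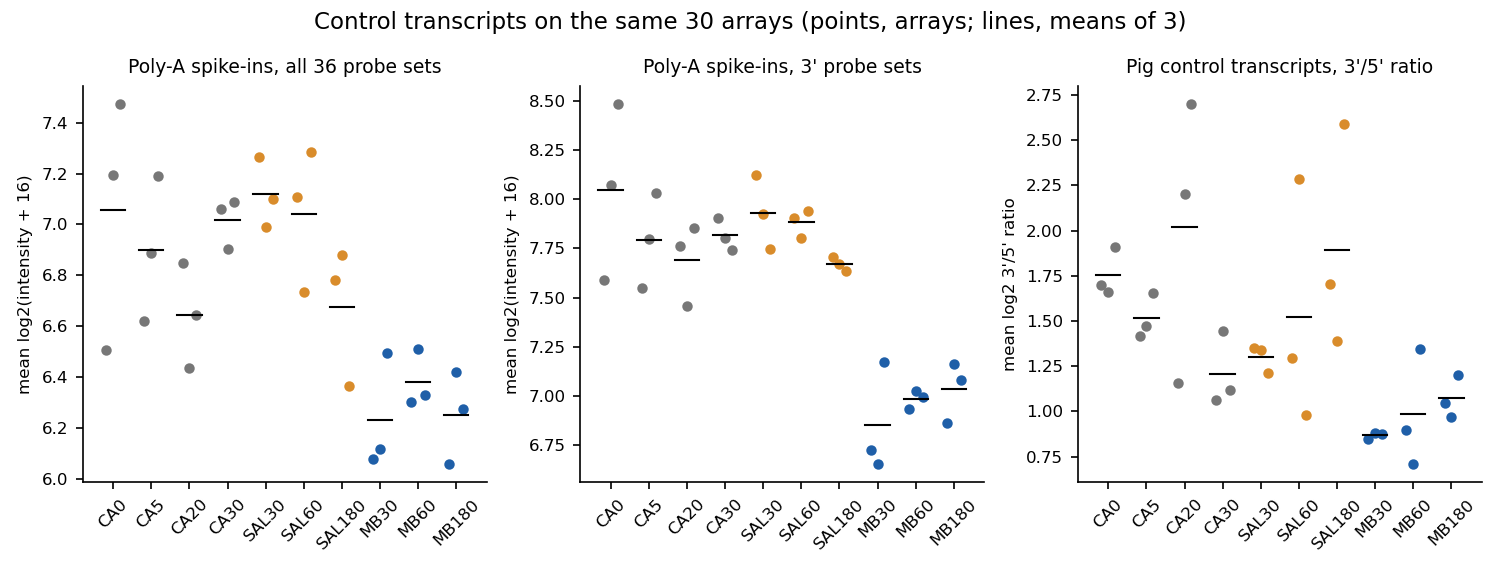
Mean log2(intensity + 16) of all poly-A spike-in probe sets (left) and of their 3' probe sets (middle), and mean log2 3'/5' ratio of pig control transcripts (right), by group; points are arrays and lines are means of 3. On the 3' spike-in probe sets all 9 MB arrays lie at 6.66 to 7.17, below all others.

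With the poly-A level as a covariate the methylene blue minus saline differences were 2.05 ± 0.17 (SE) for PSMD4, 1.998 ± 0.22 for the brightest PIP5K1A probe set, 1.35 ± 0.12 for PFDN6 and 1.41 ± 0.22 for the brighter SLC37A4 probe set. With the 3'/5' ratio as a covariate they were 1.57 ± 0.13, 1.61 ± 0.14, 1.35 ± 0.09 and 1.44 ± 0.16, and without the 4 arrays of highest 3'/5' ratio 1.69 ± 0.10, 1.72 ± 0.13, 1.41 ± 0.08 and 1.56 ± 0.15, in the same order. The labels name no processing batch, and a batch shared by all MB arrays cannot be told apart from methylene blue. Within arms, the level of each of the 7 probe sets was set against the poly-A level on 12 CA, 9 SAL and 9 MB arrays, 21 relations, and 0 passed after Benjamini-Hochberg adjustment of permutation p-values. The smallest p was that of PFDN6 on the SAL arrays (Pearson r = -0.71, exact permutation p = 0.0361, adjusted 0.565; Spearman rho = -0.65, exact p = 0.0666, adjusted 0.711), and r was -0.36 without the 2 arrays farthest from the median spike-in level. PSMD4 on the SAL arrays had r = 0.55 (exact permutation p = 0.124, adjusted 0.565) and rho = 0.53 (exact p = 0.148, adjusted 0.711), and r was 0.76 without the 2 farthest arrays.

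Counts of related genes, and of the genomic neighbours further below, are read beside the shares of all tested probe sets called in the same mean difference. These were 13.8% called higher and 11.4% called lower, and no test set a list against the rest. A change is given for the named probe set, and where a gene has others they are given too. Of 45 probe sets for 39 other proteasome genes, 3 were called higher and 10 lower in the mean methylene blue minus saline difference, with a median of -0.05 beside 0.02 for all tested probe sets, and a range of -0.39 to 0.35. For PSMD11, a scaffold subunit of the regulatory particle, the brightest probe set fell from 2656 ± 260 (SD, 9 arrays) under saline to 2086 ± 134 under methylene blue, a log2 difference of -0.34 ± 0.06 (SE, limma adjusted p = 0.000187). The other PSMD11 probe sets differed by 0.29 ± 0.13 and -0.08 ± 0.17 and did not pass, so the gene's probe sets disagree in sign. PSMB4 and PSMA7, subunits of the catalytic core, fell by 0.31 ± 0.06 (adjusted p = 0.00078) and 0.33 ± 0.07 (adjusted p = 0.00143). PSMA5, also of the core, rose by 0.35 ± 0.08 (limma adjusted p = 0.00212). The core subunits PSMA3 and PSMB1, which have the highest intensities in the list, differed by 0.07 ± 0.05 and -0.11 ± 0.05 and did not pass. The proteasome counts were 1 higher and 19 lower after centring, 0 and 4 with the 3'/5' ratio as a covariate, and 4 and 5 with the poly-A level as a covariate. Of 10 probe sets for 7 ubiquitin receptors, shuttles and ubiquitin genes, 0 were higher and 1 was lower, and the count was 1 and 1 without MB180 replicate 3. The lower one was VCP, an ATPase that extracts ubiquitin-tagged proteins, at -0.30 ± 0.06 (limma adjusted p = 0.000859) on 1 probe set and -0.06 ± 0.07, not called, on the other, while the ubiquitin gene UBB differed by 0.22 ± 0.11 without passing.

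Among other enzymes of phosphoinositide metabolism, 2 of 26 tested probe sets (19 genes on the array) rose and 6 fell, with a median of -0.03. PIKFYVE, which makes endosomal phosphoinositides, rose by 0.71 ± 0.21 (SE, limma adjusted p = 0.0156) on 1 probe set and differed by -0.03 ± 0.08 on the other. MTMR6, a phosphoinositide phosphatase, rose by 0.64 ± 0.19 (limma adjusted p = 0.0173) on 1 probe set, and its others, at 0.43 ± 0.22 and -0.03 ± 0.06, did not pass. PIK3CG and PIK3C3, both phosphoinositide kinases, fell by 0.67 ± 0.16 (adjusted p = 0.00438) and 0.48 ± 0.11 (adjusted p = 0.00374). PIP4K2A, which makes PIP2 by another route than PIP5K1A, fell by 0.48 ± 0.14 (limma adjusted p = 0.0139) on 1 of 3 probe sets, and the others, at -0.20 ± 0.17 and -0.17 ± 0.11, did not pass. MTMR2, a phosphatase, fell by 0.35 ± 0.10 (limma adjusted p = 0.0154) on 1 probe set and differed by 0.19 ± 0.18, not called, on the other. INPP5F, the enzyme with the highest intensity here, differed by -0.01 ± 0.09 and 0.21 ± 0.11 on the 2 probe sets with the highest intensity. With the 3'/5' ratio as a covariate the counts became 0 and 2, with the poly-A level as a covariate 3 and 3, and without the 4 arrays that stood apart 0 and 3.

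Of 18 tested probe sets for other prefoldin subunits, the chaperonin CCT and tubulin cofactors, 0 rose and 3 fell, with a median of -0.09. PFDN1, another prefoldin subunit, fell from 1266 ± 162 (SD, 9 arrays) to 980 ± 74.9, by 0.36 ± 0.08 on the log2 scale (limma adjusted p = 0.00146). TBCB, a tubulin folding cofactor, fell by 0.43 ± 0.10 (adjusted p = 0.00244) and the chaperonin subunit CCT4 by 0.29 ± 0.07 (adjusted p = 0.0035). CCT2 differed by 0.00 ± 0.06 and CCT8 by -0.15 ± 0.07, and neither passed. The counts were 0 and 9 after centring on the median, 0 and 5 after quantile normalization, and 1 and 0 with the poly-A level as a covariate. With the 3'/5' ratio as a covariate the PFDN1 call was lost (-0.27 ± 0.09, limma adjusted p = 0.0562), and those of TBCB and CCT4 held.

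Of 24 tested probe sets for glucose 6-phosphate and glycogen enzymes, 3 rose and 2 fell, close to the shares over all probe sets, with a median of 0.04 that turned to -0.06 after centring each array on its median. GYS1, a glycogen synthase, rose by 0.54 ± 0.12 (SE, limma adjusted p = 0.00244) on 1 probe set, and the other, at 0.51 ± 0.22, did not pass. PCK1, an enzyme of gluconeogenesis, rose by 0.58 ± 0.18 (adjusted p = 0.0214) from 32.1 ± 12.8 (SD, 9 arrays) to 56.4 ± 20.8, and its call was lost without SAL180 replicate 3 (adjusted p = 0.05) or MB180 replicate 3 (0.0558). PGM1, which interconverts glucose phosphates, fell by 0.31 ± 0.09 (limma adjusted p = 0.015). The probe sets of PYGM, a glycogen phosphorylase, disagreed: 1 fell by 0.53 ± 0.11 (limma adjusted p = 0.00165) and 1 rose by 0.58 ± 0.19 (adjusted p = 0.0234), and 2 more, at -0.12 ± 0.07 and 0.34 ± 0.21, did not pass. The higher call was lost without SAL60 replicate 2, SAL180 replicate 3, MB30 replicate 2, MB60 replicate 2 or MB180 replicate 2 (adjusted p = 0.0504 to 0.0613). The list had 1 higher and 2 lower without SAL180 replicate 3 or with a filter at the 50th percentile, 2 and 1 with the poly-A level as a covariate, and 0 and 0 with the 3'/5' ratio as a covariate. GPI and HK1, which make and convert glucose 6-phosphate, differed by 0.09 ± 0.05 and 0.07 ± 0.07 and did not pass.

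None of the list probe sets had all 9 MB arrays above the 21 others (0 in each of the 5 lists), and 0 list probe sets were called in untreated arrest or over time within an arm. Over the lists and the neighbours described next, 34 probe sets were called in the mean difference, 11 with the 3'/5' ratio as a covariate and 56 after centring each array on its median.

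PSMD4 and PIP5K1A are next to each other in the pig genome, by gene order in the RefSeq annotation of Sscrofa11.1, so the 5 nearest genes on each side of each of the 4 genes were examined. Of these 40 places 31 held a gene with a probe set. Around PSMD4, 0 of 9 probe sets were higher and 2 lower under methylene blue (median -0.18), PSMB4 as above and PI4KB, a phosphoinositide kinase, at -0.21 ± 0.07 (SE, limma adjusted p = 0.0195). Around PIP5K1A 0 of 10 were higher and 1, PI4KB again, was lower, and 2 were lower without SAL60 replicate 2. The PI4KB call was lost with the 3'/5' ratio as a covariate (-0.18 ± 0.08, limma adjusted p = 0.154). Without the 4 arrays that stood apart its difference was -0.19 ± 0.08. Only the size is given there, since that fit leaves a single CA20 array. After quantile normalization 4 were lower around each of PSMD4 and PIP5K1A. Around PFDN6 0 of 11 were called, 1 was higher without SAL60 replicate 1, SAL60 replicate 3 or MB60 replicate 3, and 3 were lower after centring.

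Around SLC37A4, 1 of 9 probe sets was higher and 3 were lower. The counts were 1 and 1 without SAL60 replicate 1, SAL60 replicate 2, MB30 replicate 1 or MB60 replicate 1, and 0 and 0 with the 3'/5' ratio as a covariate or without the 4 arrays that stood apart. They turned to 2 higher and 1 lower with the poly-A level as a covariate and to 3 and 2 with no filter. UPK2, a uroplakin of urinary epithelium, rose by 0.65 ± 0.19 (SE, limma adjusted p = 0.0128) at a low level of 54.7 ± 19.2 against 29.3 ± 13.4 (SD, 9 arrays). Its saline mean lay at the filter on low values, about 29.5, and whether it cleared the filter only through its MB arrays was not examined. The UPK2 call was lost after quantile normalization (0.46 ± 0.18, limma adjusted p = 0.0606). TRAPPC4, of a vesicle tethering complex, fell by 0.22 ± 0.07 (limma adjusted p = 0.0162) on 1 probe set and differed by 0.23 ± 0.09 (adjusted p = 0.0665) on the other. RPS25, a ribosomal protein, differed by -0.40 ± 0.14 on its dimmer probe set (limma adjusted p = 0.0396) and by -0.09 ± 0.06 on its brighter one, and CCDC84 by -0.35 ± 0.13 (limma adjusted p = 0.0437). The RPS25 call was lost without SAL30 replicate 1, any SAL60 array, SAL180 replicate 3, MB30 replicates 1 or 2, MB60 replicates 1 or 3 or MB180 replicate 2 (adjusted p = 0.0524 to 0.101). The CCDC84 call was lost without SAL30 replicates 2 or 3, SAL60 replicates 1 or 2, SAL180 replicates 1 or 2, MB30 replicates 1 or 3, MB60 replicates 1 or 2 or MB180 replicate 3 (adjusted p = 0.0514 to 0.109). No neighbour other than PSMD4 and PIP5K1A themselves had all 9 MB arrays above the 21 others.

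**Figure D4:**
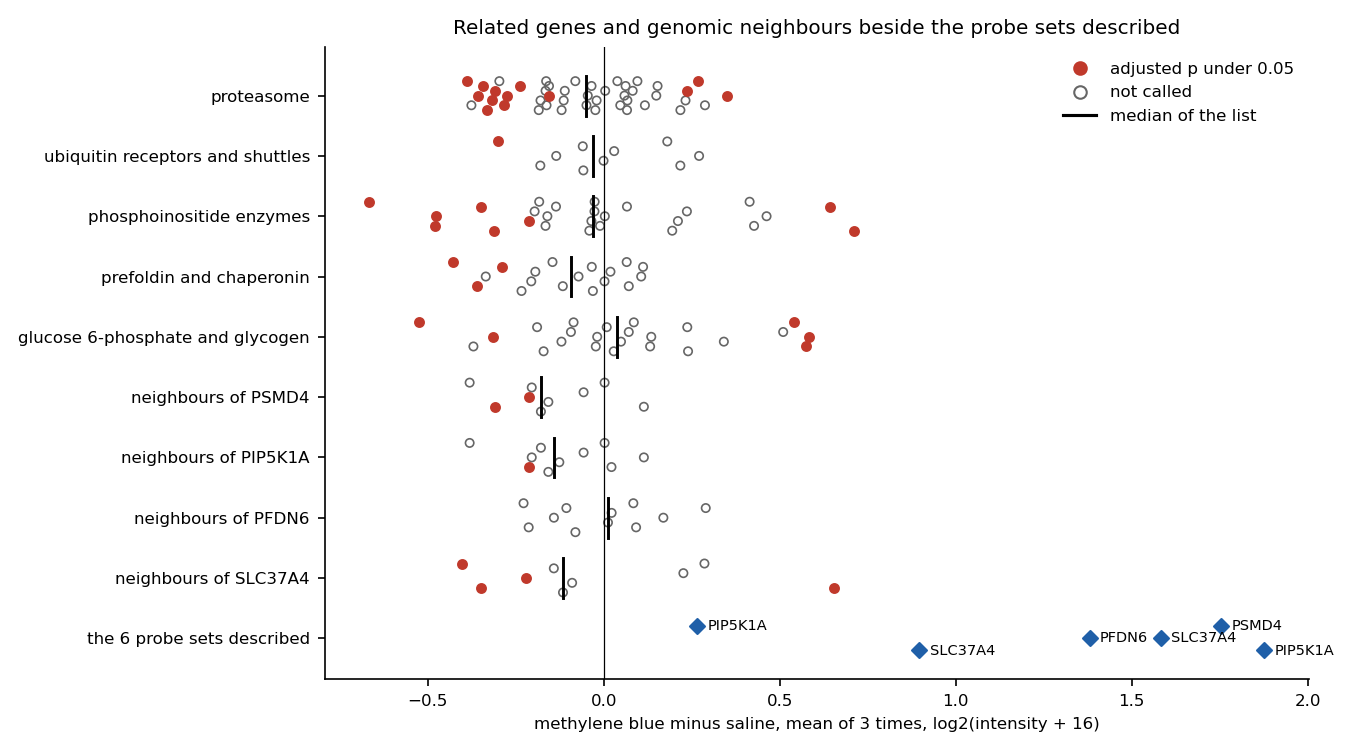
Methylene blue minus saline, mean of 3 times, in log2(intensity + 16), for each probe set of 5 related gene lists, of the genomic neighbours and of the 6 probe sets described; filled circles have a limma adjusted p under 0.05 and bars are list medians. List and neighbour values lie between -0.67 and 0.71, and 5 of the 6 probe sets described lie at 0.90 or above.

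Genes with the most similar pattern were named by Pearson's r of log2 levels over the 30 arrays, among 7848 probe sets with a single symbol, as a description. Because MB arrays form 1 cluster and the others another, r was also computed after each group's mean was taken off. For PSMD4 the closest was NDRG2, which is also in the astrocyte marker list, with r = 0.97 (0.49 with group means off), then PIP5K1A at 0.95 (0.55), PFDN6 at 0.94 (0.04), KCTD17 at 0.93 (0.51) and CD59, an inhibitor of complement, at 0.92 (0.40). For PIP5K1A they were PSMD4, PFDN6 at 0.94 (-0.08), NDRG2 at 0.91 (0.02), SLC37A4 at 0.89 (0.06) and KCTD17 at 0.88 (0.24). For PFDN6 they were PSMD4, PIP5K1A, NDRG2 at 0.94 (0.01), SLC37A4 at 0.92 (0.23) and CTNNB1, which encodes beta-catenin, at 0.90 (0.12). For SLC37A4 they were PFDN6, PSMD4 at 0.91 (0.24), NDRG2 at 0.91 (0.25), TRO at 0.90 (0.52) and PIP5K1A. With group means off, r between PSMD4 and the middle PIP5K1A probe set was -0.53, against 0.55 for the brightest, so the PIP5K1A probe sets differed in sign. NDRG2 read 2587 to 3969 (median 3047) on the MB arrays and 764 to 1735 (median 1012) on the others, and KCTD17 75.4 to 121 against 27.5 to 57.6.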

How the data were processed

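The authors deposited 1 intensity per probe set and array on a linear scale, made with GCOS per the submitters' processing notes; the sources used here give neither its version nor its algorithm. The deposited intensities had a trimmed mean (2% off each end) of 300.05 to 300.06 on every array, and no further scaling was applied. Symbols came from the platform annotation (10069 probe sets with 1, 198 with several), and gene order from the RefSeq annotation of Sscrofa11.1.

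Values were taken as log2(intensity + 16), which understates changes of low probe sets. The 124 control probe sets were left out, as were probe sets under the 30th percentile of mean level, leaving 16799. Limma 3.58.1 (R 4.3.3) fitted 10 group means with 20 residual degrees of freedom and an intensity trend, and 2-sided p-values were adjusted by Benjamini-Hochberg for each contrast (threshold 0.05). The fit was tested on simulated data. The labels call replicates biological and do not say how they were processed together.

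The 4 genes, the related lists and the rules were chosen with earlier results of these data known. Genes named per list were up to 4 called by smallest p and the 2 of highest intensity, and per described gene the 5 most alike. Alternatives covered the pseudocount, filter, scaling, covariates, a replicate block and each array left out. Promoter and protein sequences were not used here. Probe sets of a gene are told apart by their brightness, the mean level over all arrays.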

Additional observations from a re-analysis of the deposited data

How the results depend on the processing

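With 3 arrays in each group the intervals are wide. The methylene blue minus saline difference of the middle PIP5K1A probe set, 0.26, was 0.05 after quantile normalization and 0.38 with a pseudocount of 1. That of the dimmer SLC37A4 probe set, 0.90, was 0.55 with a pseudocount of 64 and 1.13 with 1. The 0 calls among the probe sets of PSMD4, PIP5K1A, PFDN6 and SLC37A4 in untreated arrest and within arms held under every alternative run. Their median methylene blue minus saline difference was 1.48, ran from 1.21 to 1.76 over the processing alternatives, where a stricter filter or a pseudocount of 64 also drops low probe sets, and from 1.45 to 1.50 with single arrays left out. The count of related probe sets called, 34, became 56 after median centring, 11 with the 3'/5' ratio as a covariate and 22 without the 4 arrays of highest 3'/5' ratio, an alternative chosen after seeing the data; with single arrays left out it was 27 to 37. The first of these changes only the scaling and the last has fewer arrays, and the cause of the others was not tested. The count of relations between these genes and the spike-ins that passed, 0, became 1 after median centring, and the cause was not tested. The poly-A difference was -0.71 to -0.62 with single arrays left out. With the replicate number as a block, 35 related probe sets were called, 0 tests of the 4 genes were called and the median was again 1.48. Same-numbered arrays of different groups had correlations of their deviations of -0.38 to 0.37, and 8 of 30 arrays correlated best with one of their own number. The median correlation was -0.003 for arrays of the same number and -0.010 for arrays of different numbers. These values show no pairing by number, but they cannot exclude that same-numbered arrays were handled together. The brighter SLC37A4 probe set had replicate 1 highest in all 4 untreated arrest groups, though not in every other group. Whether this order reflects handling was not tested.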
